A study of Mus musculus with 12 samples.

Results

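The mitochondrial ribosome is assembled from RNAs encoded by mitochondrial DNA and a set of proteins that are encoded in the nucleus, made in the cytosol and imported. The genes of these proteins are named Mrps where the protein was first assigned to the small subunit and Mrpl where it was assigned to the large one. All 77 rows of the count table whose gene symbol begins with Mrps or Mrpl and a digit are described here, out of 23282 rows in all. The rule uses the symbol only, and no measured value. The small subunit reads the messenger RNA, and the large subunit joins amino acids and releases the chain through a tunnel at the inner mitochondrial membrane. The products are all subunits of the oxidative phosphorylation complexes. In mouse and human some of the proteins have counterparts in bacterial ribosomes, while others are found in mitochondrial ribosomes only.

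The study injected mice with ODN, the class B CpG-ODN 1826, and with IM156, which the series names as an inhibitor of oxidative phosphorylation. CpG-ODN is a synthetic DNA that activates the endosomal receptor TLR9, to which B cells respond by growth and division. Each of 4 groups holds 3 libraries. The ODN+IM156 mice received both agents, the ODN mice 50 µg of ODN on days 1 and 3, the IM156 mice 30 mg/kg of IM156 on days 0 and 2, all into the peritoneum, and the control mice no treatment. All were wild-type C57BL/6 mice of 7 weeks by the labels, although the series description calls them lupus-prone. Spleens were taken on day 4 and RNA of the splenic B cells was read from the 3' ends of transcripts. The labels give no vehicle for the control mice and no number of animals behind a library, so p-values measure the spread between libraries, which may be technical.

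Of the 77 genes, 26 encode proteins of the small subunit and 50 proteins of the large one. The large-subunit group includes Mrps18a and Mrps30, whose proteins were later placed there. Mrps36 belongs to neither, since its product is a component of the 2-oxoglutarate dehydrogenase complex. By the current naming of ribosomal proteins, from general knowledge and not from the files, 46 of the proteins carry a name shared with bacteria (16 small-subunit and 30 large-subunit) and 30 a mitochondrial one (10 and 20). The genes lie on 17 chromosomes of GRCm38 (mm10), with 10 on chromosome 11 and 8 on chromosome 17. Their annotated transcripts are short, with a median length of 1316 bases (463 to 7300) against 3006 bases over all genes tested that have a length.

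Libraries held 9650775 to 11532525 counts, of which the 77 genes took 0.330 to 0.398%. A member had 31 to 1717 counts in a library. All 77 genes passed the filter on low counts, which kept 11857 genes. The 18 B-cell identity genes summed to 14244 to 16193 CPM (counts scaled to a common library size) over the 12 libraries, so the labelled cell type was present throughout. Of the ODN libraries, replicate 1 had the highest sum of 20 mitosis genes, at 3080 CPM, against 1373 and 859 CPM in replicates 2 and 3 and 307 to 573 CPM in control. ODN replicate 2 had 1.46% of its counts on the ribosomal RNA row Rn45s, against 4.78 to 9.63% in the other libraries. ODN replicate 3 held a single count of Xist, which silences 1 X chromosome in female cells (9701 to 13011 counts in the others), while Y-linked genes had 0 to 2 counts in every library. Counts of genes called by edgeR in ODN against control are therefore given below also without each ODN library.

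Some of the promoters are shown first, because nuclear genes of mitochondrial proteins are known for sites of NRF1, of ETS factors such as GABP and of YY1 close to their starts. RefSeq promoters of GRCm38.p6, 250 bases before to 50 bases after the start, were found for 68 of the 77 genes, 74 promoters in all. The motifs searched on both strands were GCGCA, any base and GCGC for NRF1, CCGGAAG for ETS factors, AAGATGGC for YY1 and CACGTG for the E-box bound by MYC and USF. The 4 promoters printed here belong to genes whose level differed between ODN and control libraries. Mrpl52 (chr14:54426659-54426958, plus strand) holds a pair of ETS motifs, Mrpl30 (chr1:37890227-37890526, plus strand) 1 NRF1 motif and Mrpl45 (chr11:97315466-97315765, plus strand) 3 NRF1 motifs. Mrps5 (chr2:127587176-127587475, plus strand), the 1 gene among those called that was lower in ODN, holds none of the 4 motifs. Capitals mark the motifs, in either orientation.
Mrpl52: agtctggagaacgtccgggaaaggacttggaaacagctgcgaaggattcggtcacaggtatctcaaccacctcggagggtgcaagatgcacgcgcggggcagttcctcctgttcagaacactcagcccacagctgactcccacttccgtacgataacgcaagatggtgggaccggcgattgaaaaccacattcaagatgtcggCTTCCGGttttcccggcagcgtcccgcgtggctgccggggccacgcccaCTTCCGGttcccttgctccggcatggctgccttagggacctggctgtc
Mrpl30: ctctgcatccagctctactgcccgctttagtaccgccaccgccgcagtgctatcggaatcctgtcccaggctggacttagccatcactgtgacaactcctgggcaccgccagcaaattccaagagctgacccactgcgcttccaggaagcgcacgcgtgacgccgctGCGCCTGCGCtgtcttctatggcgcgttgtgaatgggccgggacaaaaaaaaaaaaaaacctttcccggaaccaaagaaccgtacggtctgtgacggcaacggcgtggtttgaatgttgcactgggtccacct
Mrpl45: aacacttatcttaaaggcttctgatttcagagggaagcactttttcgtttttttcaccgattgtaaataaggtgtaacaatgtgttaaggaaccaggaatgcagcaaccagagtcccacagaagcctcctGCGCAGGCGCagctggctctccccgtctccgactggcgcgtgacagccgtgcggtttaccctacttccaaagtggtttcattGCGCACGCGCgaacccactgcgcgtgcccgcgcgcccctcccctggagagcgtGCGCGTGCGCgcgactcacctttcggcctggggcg
Mrps5: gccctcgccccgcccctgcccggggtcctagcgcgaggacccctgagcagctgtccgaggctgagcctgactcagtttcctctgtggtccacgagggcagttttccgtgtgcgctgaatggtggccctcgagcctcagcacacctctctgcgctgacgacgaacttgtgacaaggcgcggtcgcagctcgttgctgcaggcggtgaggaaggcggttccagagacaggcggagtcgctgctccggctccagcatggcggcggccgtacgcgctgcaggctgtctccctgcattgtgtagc

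At least 1 of the 4 motifs stood in 46 of the 74 promoters (62.2%), against 36% of the 11388 promoters of genes tested and 20.2% of all 32851 promoters. The ETS motif was the most frequent, in 25 of the 74 promoters (33.8%, against 18.3% for genes tested and 8.86% for all promoters). The NRF1 motif stood in 13 (17.6%, against 10.4% and 4.6%) and the YY1 motif in 12 (16.2%, against 4.64% and 2.75%). For the E-box the share was 9.46%, against 7.15% of all promoters and 1143 of the 11388 promoters of genes tested. No ETS motif overlapped a YY1 motif in these 74 promoters. These shares describe the letters in the windows, not bound sites.

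ODN against control asks which of these genes differ after the TLR9 ligand. With edgeR's quasi-likelihood test, a gene is called here at a Benjamini-Hochberg adjusted p below 0.05 over all 11857 genes. In this comparison 8 of the 77 genes rose and 1 fell. The 9 calls are 11.7% of the members, close to the 10.6% of all genes tested that were called. Higher calls were 10.4% of the members and 7.34% of all genes, lower calls 1.3% and 3.25%. DESeq2 called 9 of the 77 as well, the same 9 genes, with a background of 11.9%. The share of calls among these genes is thus near that of the whole table.

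The members had a positive median with ODN. Their median log2 fold change was 0.15, against 0.00 over all genes tested, and 59 of 77 were positive (76.6%, against 49.2% of all genes). The fold changes ran from -0.36 to 0.65, with a median standard error (SE) of 0.127. At an unadjusted p below 0.05 there were 26 genes (33.8%, background 25.2%), of which 25 were higher and 1 lower. In 21 genes (27.3%, background 13.2%) every ODN library lay above every control library, and in 3 (3.9%, background 11.3%) every ODN library lay below. No p-value is given for the group, whose members were not chosen independently of earlier results. The median was 0.09 when libraries were scaled by their totals alone, where the median of all genes was -0.07. It was 0.07 with a correction for transcript length, with the median of all genes at 0.00.

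Transcript length ran with the fold change over the whole table. Spearman's rho between length and the ODN fold change was -0.21 over 11353 genes that share the same libraries, and -0.12 over the 77 members. Members shorter than 1316 bases had a median of 0.22 (38 genes) and the others 0.13 (39 genes). For all genes tested the medians on the same division were 0.16 for shorter (1406 genes) and -0.02 for longer ones (9947 genes). The part of length in the members' median beyond the correction above was not tested.

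Summed over the 77 genes, the levels were 3906, 3944 and 3492 CPM in the ODN libraries and 3410, 3349 and 3190 CPM in the control libraries. The means were 3781 ± 251 CPM in ODN and 3317 ± 114 CPM in control (SD, n = 3 each), and the libraries did not overlap in these scaled levels. As a share of all counts of a library they did overlap. ODN replicate 3, at 0.334%, lay below control replicates 1 and 2, at 0.337% and 0.336%. ODN replicates 1 and 2 stood high, with 56 and 64 of the 77 genes above the control mean, and replicate 3 stood nearer to control, with 48. The median deviation from the control mean was 0.18, 0.18 and 0.05 on the log2 scale in ODN replicates 1, 2 and 3. Both subunits were higher in ODN: the small-subunit genes summed to 1263 ± 80.7 CPM in ODN and 1128 ± 48.9 CPM in control, the large-subunit genes to 2500.0 ± 177 and 2172 ± 67.4 CPM (SD, n = 3 each).

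**Figure D1:**
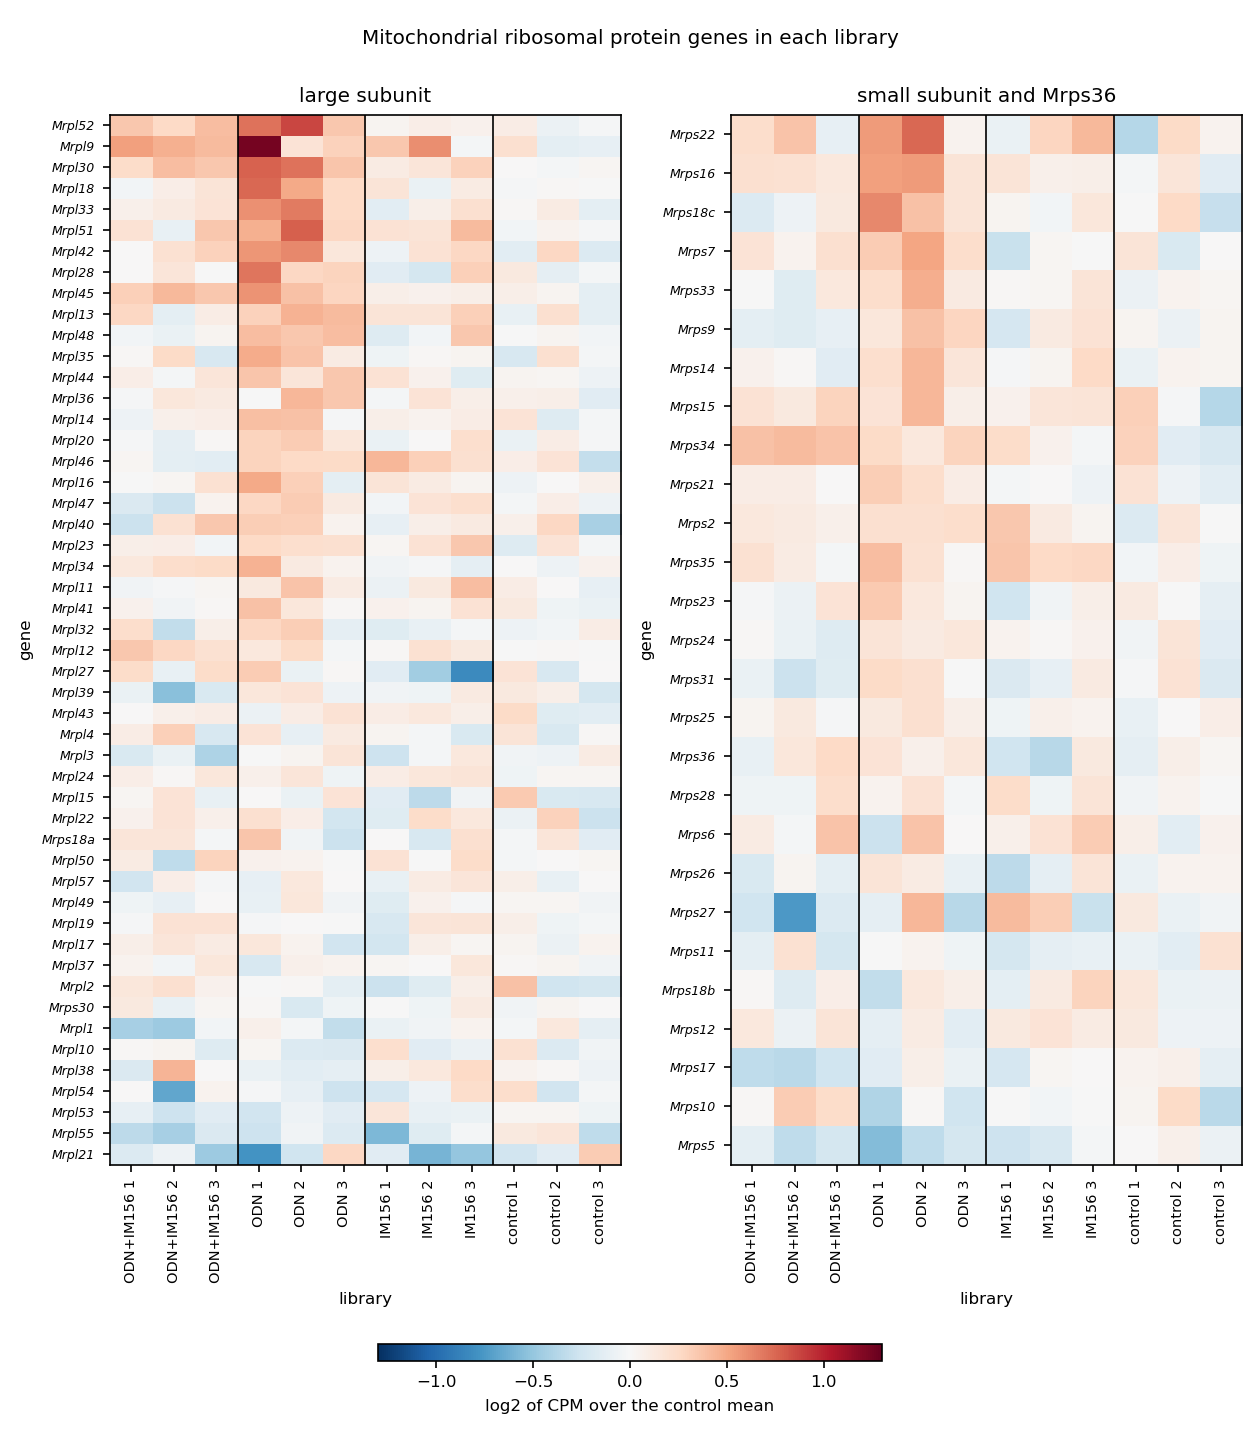
Level of each of the 77 genes in each of the 12 libraries, as log2 of its CPM over the mean CPM of the 3 control libraries (colour bar; red higher, blue lower), with genes in the order of their ODN fold change and subunits side by side. ODN replicates 1 and 2 hold the most red cells, and ODN replicate 3 is paler, as its median deviation of 0.05 against 0.18 in the other ODN libraries states.

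Of the large subunit, 7 genes rose with ODN and none fell among 50 (14.0%, background 10.6%). The strongest call was Mrpl52, for the mitochondria-specific protein mL52 (GRCm38 chr14:54426909-54429756, plus strand). It had 127, 142 and 99.0 CPM in the ODN libraries, against 83.1, 73.7 and 76.9 CPM in the control libraries. Every ODN library was above every control library, and the log2 fold change was 0.65 (SE 0.109, edgeR adjusted p = 0.000712). Mrpl30 (chr1:37890477-37898535, plus strand), for uL30m, a counterpart of bacterial L30, had 119, 114 and 89.8 CPM in ODN and 70.4, 68.8 and 71.1 CPM in control. The control libraries were close together and all ODN libraries above them (0.62, SE 0.104, edgeR adjusted p = 0.000742). Mrpl30 and Mrpl52 are the genes whose promoters, printed above, hold 1 NRF1 motif and a pair of ETS motifs.

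Mrpl18 (chr17:12911349-12916345, minus strand) encodes uL18m, whose bacterial counterpart binds a small RNA of the large subunit. Its levels were 151, 127 and 108 CPM in ODN and 89.3, 91.2 and 89.5 CPM in control. Again no control library reached an ODN library (0.52, SE 0.109, edgeR adjusted p = 0.00402). Mrpl33 (chr5:31596935-31664384, plus strand), for bL33m, had 83.4, 88.6 and 66.2 CPM in ODN and 56.0, 59.7 and 50.6 CPM in control. The lowest ODN library, replicate 3, stood above the highest control library (0.52, SE 0.118, edgeR adjusted p = 0.00668). Mrpl18, Mrpl30 and Mrpl52 were called under all 20 alternative settings tried, including each left-out library, and Mrpl33 under 19 of 20. Its exception was the correction for transcript length, with an adjusted p of 0.134 and a log2 fold change of 0.25.

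Mrpl45 (chr11:97315716-97329920, plus strand) encodes mL45, which sits at the exit of the tunnel and holds the ribosome to the inner membrane. It had 78.3, 67.8 and 63.1 CPM in ODN and 55, 53.4 and 47.8 CPM in control (0.42, SE 0.1, edgeR adjusted p = 0.00951). Mrpl51 (chr6:125191801-125196269, plus strand), for the mitochondria-specific mL51, had 59.4, 74.0 and 52.0 CPM in ODN and 42.3, 44.7 and 42.7 CPM in control (0.52, SE 0.133, edgeR adjusted p = 0.0164). For both genes each ODN library lay above each control library. Mrpl42 (chr10:95480805-95501940, minus strand), for the mitochondria-specific mL42, had 59.0, 61.2 and 44.0 CPM in ODN and 36.2, 47.8 and 35.2 CPM in control (0.46, SE 0.144, edgeR adjusted p = 0.0471). It was the only called gene whose ODN and control libraries overlapped, since control replicate 2 was above ODN replicate 3.

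Of the small subunit, 1 gene rose and 1 fell among 26 (7.69%, background 10.6%). The difference between the subunits was not tested. Mrps16 (chr14:20389304-20393634, minus strand), for bS16m, a counterpart of bacterial S16, had 116, 118 and 90.4 CPM in ODN and 79.1, 89.8 and 72.4 CPM in control. ODN replicate 3 and control replicate 2 nearly met (0.42, SE 0.106, edgeR adjusted p = 0.0131). Mrps5 (chr2:127587222-127606829, plus strand) encodes uS5m, the counterpart of bacterial S5, a protein known for its part in the accuracy of decoding. It had 50.0, 58.8 and 63.0 CPM in ODN and 73.7, 77.2 and 70.1 CPM in control. All ODN libraries lay below all control libraries (-0.36, SE 0.106, edgeR adjusted p = 0.0323).

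The number of calls moved with single libraries. Without ODN replicate 3, the library with 1 Xist count, 15 of the 77 genes were called (14 higher, 1 lower), all 9 among them. These are 19.5% of the members, where 15.5% of all genes were called in that fit. Without ODN replicate 2 there were 5 (6.49%, background 7.88%), and without ODN replicate 1, the library with the highest mitosis sum, 6 (7.79%, background 6.33%). Without control replicate 3 there were 4 (5.19%, background 6.72%). When only the ODN and control libraries were fitted, 4 genes were called (5.19%, background 5.23%): Mrpl18, Mrpl30, Mrpl33 and Mrpl52. Mrpl45 lost its call without ODN replicate 1 or control replicate 3, Mrpl51 without ODN replicate 2 or control replicate 3, and Mrps16 without ODN replicate 1, ODN replicate 2 or control replicate 3. Mrps5 lost it without any 1 of the control libraries, without ODN replicate 1 or 2, without IM156 replicate 2 and with the length correction. Mrpl42 was called under 8 of 20 alternatives.

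**Figure D2:**
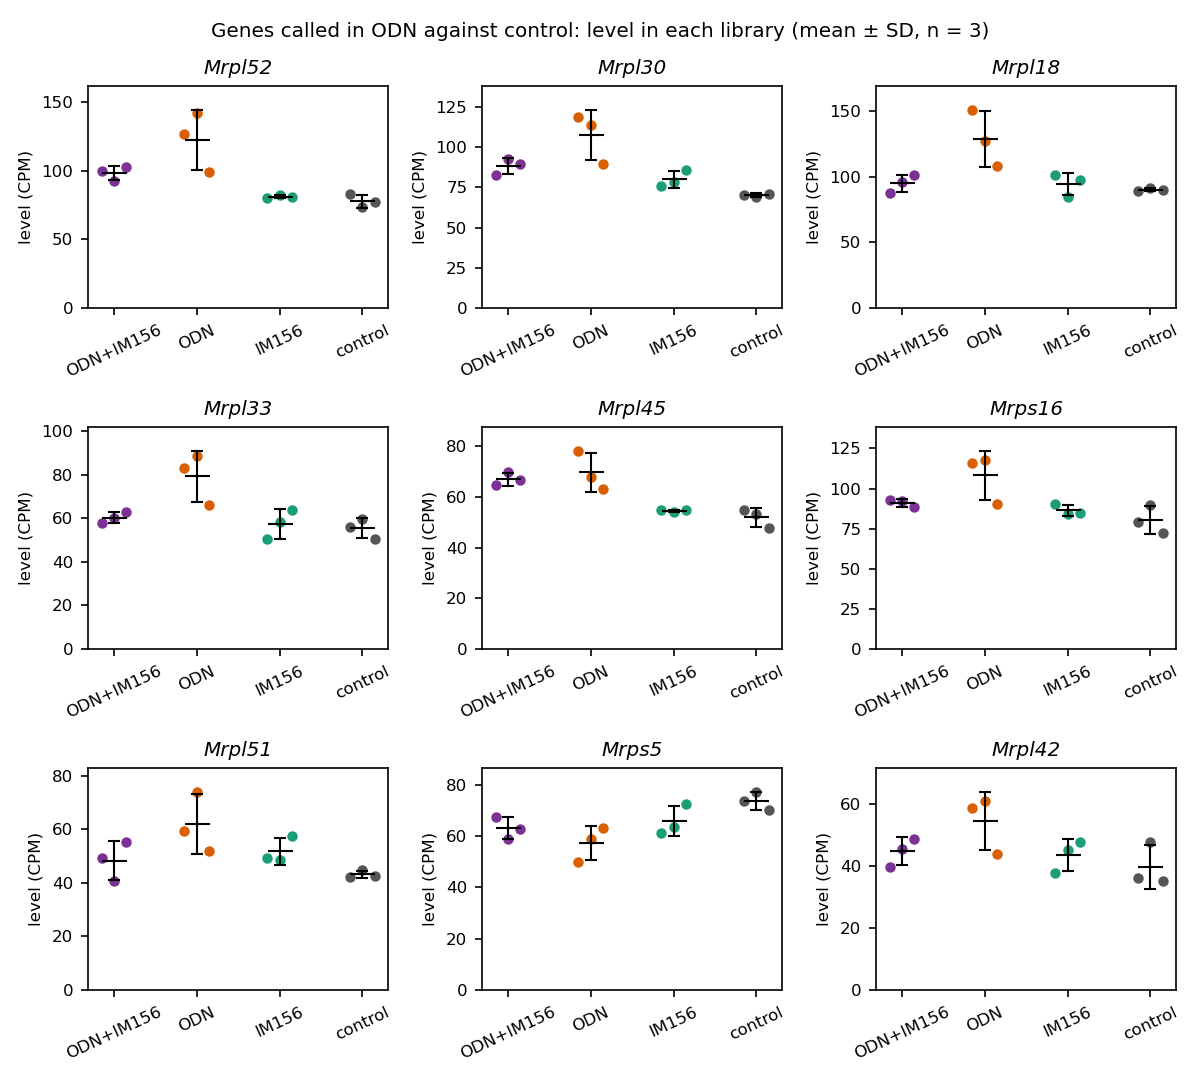
Level in CPM of the 9 genes called in ODN against control, for the 3 libraries of each group (points), with the mean (horizontal line) and SD (error bar), on axes that start at 0. In 8 genes the ODN libraries do not overlap the control libraries, and in Mrpl42 they do.

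The called genes belong to both evolutionary classes. Of 46 genes with a name shared with bacteria, 4 rose and 1 fell (10.9%, median 0.19), and of 30 mitochondria-specific genes, 4 rose and none fell (13.3%, median 0.14), both shares near the 10.6% of all genes. Without ODN replicates 1, 2 and 3 in turn the calls were 4, 3 and 10 of the 46, and 2, 2 and 5 of the 30. For the large subunit they were 6, 5 and 10 of 50, and for the small subunit 0, 0 and 5 of 26. In these fits 6.33%, 7.88% and 15.5% of all genes were called. The medians of the subunits were 0.16 for the small and 0.15 for the large. The 10 promoters of the 9 called genes held the ETS motif in 5, the NRF1 motif in 2, the YY1 motif in 1 and none of the 4 motifs in 2.

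Of the genes picked for their known place in the ribosome, Mrpl45 was the only one called. In the stalk, which recruits translation factors, Mrpl12 had a log2 fold change of 0.13 (64.8 ± 6.23 CPM in ODN, 59.3 ± 0.593 in control, SD, n = 3 each) and was not called. The other stalk genes had values of -0.11 for Mrpl10, 0.21 for Mrpl11, -0.15 for Mrpl53 and -0.12 for Mrpl54, none called. At the tunnel exit, beside Mrpl45, the values were 0.03 for Mrpl22, 0.23 for Mrpl23, 0.06 for Mrpl24 and 0.30 for Mrpl44, also uncalled. Mrps12, a protein of the decoding centre, had -0.04. Mrpl36 had 0.27, Mrps30 -0.08 and Mrps36, outside the ribosome, 0.13.

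The S18 family has a member in each subunit. Mammals have 3 proteins related to bacterial S18, of which Mrps18c and Mrps18b lie in the small subunit and Mrps18a in the large one. Only Mrps18c keeps the S18 name and is counted above as shared with bacteria, while Mrps18b (mS40) and Mrps18a (mL66) carry mitochondrial names and are counted as mitochondria-specific. Mrps18c had 42.1 ± 6.65 CPM in ODN and 31.9 ± 6.13 CPM in control (SD, n = 3 each), a log2 fold change of 0.40 that did not pass (edgeR adjusted p = 0.0884). Mrps18b stood at 28.6 ± 4.61 and 29.1 ± 2.8 CPM (-0.02) and Mrps18a at 16.7 ± 3.85 and 16.3 ± 1.73 CPM (0.03), ODN before control. The difference between family members was not tested.

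Proteins of the mitochondrial ribosome that carry other symbols did not pass either. Of the small subunit these are Dap3 (log2 fold change 0.08), Ptcd3 (0.08), Chchd1 (0.30, edgeR adjusted p = 0.0887) and Aurkaip1 (0.27, edgeR adjusted p = 0.071). Of the large subunit, Gadd45gip1 had -0.05 and Ict1, the release factor homologue also named Mrpl58, 0.17.

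Other genes of mitochondrial gene expression had 0 or 1 call per list with ODN, where 10.6% of all genes were called. Of 13 genes tested in the list of translation factors, 1 rose (median 0.02). It was Oxa1l, which inserts newly made proteins into the inner membrane and is itself no translation factor. Oxa1l had 97.3 ± 7.51 CPM in ODN and 72.7 ± 3.02 CPM in control (0.42, edgeR adjusted p = 0.0035). Of 20 genes in the list of mitochondrial aminoacyl-tRNA synthetases, 1 fell (median -0.05). It was Ears2, which charges the tRNA of glutamate, at 14.4 ± 4.6 CPM in ODN and 22.7 ± 2.4 CPM in control (-0.65, edgeR adjusted p = 0.0253). This list also holds Qrsl1, Gatb and Gatc, which are not synthetases and were not called. None of 28 genes of ribosome assembly and ribosomal RNA modification was called (median -0.01), and none of 13 for transcription and replication of mitochondrial DNA (median 0.00). Of 19 genes of mitochondrial RNA processing, 1 rose (median -0.08): Hsd17b10, a subunit of mitochondrial RNase P, at 66.7 ± 1.96 CPM in ODN and 53.8 ± 2.91 CPM in control (0.31, edgeR adjusted p = 0.0356). SDs here are of 3 libraries a group. Oxa1l was called without any 1 of the ODN or control libraries. Ears2 was not called without ODN replicate 1 (adjusted p = 0.0997 with edgeR), nor without control replicate 1 or 2. Hsd17b10 was not called without ODN replicate 1 or 2 (adjusted p = 0.0893 and 0.0946 with edgeR), nor without control replicate 1 or 3. In the fit without ODN replicate 3, where 15.5% of all genes were called, the translation factors had 1 call and the synthetases 3. The assembly list had 2, the RNA processing list 2 and the mitochondrial DNA list 0. The transcripts encoded by mitochondrial DNA were not analysed here.

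Genes of the cytosolic ribosome and of respiratory complex I had higher shares of calls, 95.2% and 31.6%, than the 77 genes. Of 83 cytosolic ribosomal protein genes tested, 79 rose and none fell (median 0.54), among them Rpl39, with 1307 ± 76.1 CPM in ODN and 765 ± 15.1 CPM in control, Rps12 and Rpl29. Of 38 genes named as nuclear complex I subunits, 12 rose and none fell (median 0.24). Among them were Ndufb5, with 196 ± 26.7 CPM in ODN and 135 ± 8.49 CPM in control, Ndufv2 and Ndufa6 (SD, n = 3 each). The list was drawn by symbol and also holds Ndufa4, later placed in complex IV, and its relative Ndufa4l2, neither of them called. Without ODN replicates 1, 2 and 3 in turn the calls were 78, 78 and 79 of the cytosolic list and 5, 4 and 17 of the complex I list. Without control replicate 3 they were 73 and 3. The range of the 77 genes, -0.36 to 0.65, overlapped that of the cytosolic list, 0.14 to 0.84. The difference between the lists was not tested, and many cytosolic ribosomal protein genes have near-identical pseudogenes to which reads could be assigned.

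**Figure D3:**
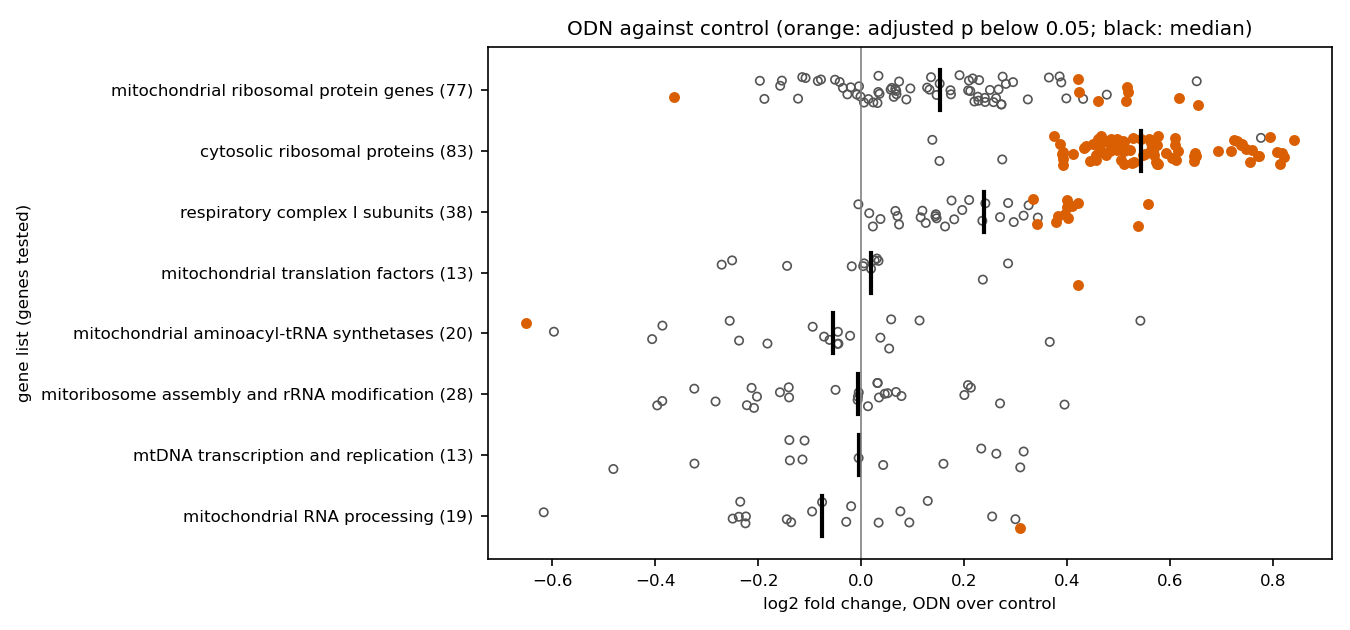
Log2 fold change of each gene in ODN against control (x axis) for the 77 genes and 7 companion lists (rows, with the number of genes tested), orange where the edgeR adjusted p is below 0.05, with a black bar at the median. The bar stands at 0.15 for the mitochondrial ribosomal protein genes, 0.54 for cytosolic ribosomal proteins, 0.24 for complex I and between -0.08 and 0.02 for the other 5 lists.

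Transcripts of dividing cells and of other cell types differed between the same libraries. All 20 mitosis genes rose with ODN (median 1.95). Without ODN replicates 1, 2 and 3 in turn 18, 20 and 20 of them were called. The mitosis sums in ODN replicates 1, 2 and 3 were 3080, 1373 and 859 CPM. The sums of the 77 genes were 3906, 3944 and 3492 CPM, so replicate 3 was the lowest ODN library in both. Platelet markers (10 of 12 tested) summed to 138 to 234 CPM in ODN and 48.5 to 72.1 CPM in control, neutrophil markers (3 of 11 tested) to 24 to 89.8 and 5.81 to 9.54 CPM, NK-cell markers (4 of 10) to 16 to 25.3 and 4.45 to 5.07 CPM, and dendritic-cell markers (9 of 10) to 66.1 to 68.4 and 48.8 to 59.4 CPM, ODN before control. Erythroid markers (9 of 15 tested) summed to 117 to 266 CPM in ODN and 691 to 887 CPM in control. The summed levels of T-cell (8 of 14), monocyte (12 of 13) and plasma-cell markers (7 of 8) overlapped between ODN and control libraries. Among the monocyte markers, however, all 12 tested had positive fold changes (median 0.44) and 3 were called higher, C1qb, C1qc and Cd14. Without ODN replicates 1, 2 and 3 in turn 4, 1 and 4 monocyte markers were called. No marker in the table was at 0 in every library. The part of division and of other cells in the levels of the 77 genes was not tested, and in bulk RNA fewer cells of a type cannot be told from less RNA per cell.

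Neighbours on the other strand were followed beside these genes. In 33 of the 77 genes another protein-coding gene starts on the opposite strand within 1000 bases, and 29 of these partners were tested. As Mrpl46 and Mrps11 are partners of each other, these make 28 pairs. With ODN 5 partners rose and 1 fell, 20.7% of the 29 tested, where 10.6% of all genes were called. Whether the partners' share differs from that of all genes was not tested. In 15 of 28 pairs both genes had fold changes of the same sign. Without ODN replicates 1, 2 and 3 in turn 3, 4 and 9 of the 29 partners were called. In these fits 6.33%, 7.88% and 15.5% of all genes were called. In 2 pairs both genes were called. Mrpl51 starts 100 bases from Ncapd2, a condensin subunit of mitotic chromosomes, which had 133 ± 80.7 CPM in ODN and 60.0 ± 9.16 CPM in control (1.14, SE 0.261, edgeR adjusted p = 0.0069). Mrpl18 starts 644 bases from Tcp1, a subunit of the cytosolic chaperonin, with 190 ± 14.1 CPM in ODN and 154 ± 7.52 CPM in control (0.30, edgeR adjusted p = 0.0387). Ncapd2 was called without any 1 of the ODN libraries, with a fold change of 0.53 without ODN replicate 1. Tcp1 was not called without ODN replicate 1 or 2 (adjusted p = 0.139 and 0.0902 with edgeR), nor without control replicate 2 or 3. Mrpl30 starts 66 bases from Mitd1, which stood at 86.8 ± 12.1 CPM in ODN and 91.3 ± 5.3 CPM in control (-0.07, SD, n = 3 each), while Mrpl30 itself rose.

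How reads were assigned to strands is not given in the sources used here. An opposite-strand protein-coding gene overlaps 23 of the 77, and in 7 the last 500 transcript bases, which these libraries read, share bases with an exon of another coding gene. Those 7 are Mrps7, Mrpl49, Mrps6, Mrpl24, Mrpl19, Mrpl53 and Mrps25, and their counts are uncertain. None of the 9 called genes is among them, although Mrpl18 and Mrpl33 overlap Tcp1 and Rbks elsewhere. The annotation also lists 5 pseudogenes with symbols like those of the 77 genes.

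ODN+IM156 against ODN asks what IM156 changed in mice that also received ODN. No gene of the 77 was called with edgeR, where 0.0675% of all genes were. At an unadjusted p below 0.05 there were 23 genes (29.9%, background 16.2%), 22 of them lower and 1 higher in ODN+IM156. DESeq2 called 3 of 76 genes with an adjusted p (background 4.71%), all lower: Mrpl18, Mrpl33 and Mrps9. The median log2 fold change was -0.15, against -0.01 over all genes, and 56 of 77 were negative. In 23 genes (29.9%, background 19.1%) the ODN+IM156 and ODN libraries did not overlap. In 2 of them (2.6%, background 9.07%) every ODN+IM156 library lay above every ODN library, and in the other 21 below. This comparison shares its ODN libraries with ODN against control, so opposite signs in both are in part given by the same 3 libraries. With the length correction the median was -0.07, and without ODN replicate 3 it was -0.18 and 7 genes were called, all lower (9.09%, where 6.57% of all genes were called in that fit).

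The 77 genes summed to 3427, 3405 and 3498 CPM in the ODN+IM156 libraries (mean 3443 ± 48.5), against 3781 ± 251 CPM in ODN (SD, n = 3 each). ODN replicate 3, at 3492 CPM, lay within the ODN+IM156 range and the other ODN libraries above it. The 3 genes of smallest p were these same genes. Mrpl18 had 87.7, 95.8 and 101 CPM in ODN+IM156, against 151, 127 and 108 CPM in ODN (-0.44, SE 0.109, edgeR adjusted p = 0.0634). Mrps9, whose bacterial counterpart reaches the tRNA in the peptidyl site, had 42.2, 41.2 and 42.8 CPM in ODN+IM156, against 51.2, 59.9 and 55.9 CPM in ODN (-0.40, SE 0.112, edgeR adjusted p = 0.0812). Mrpl33 had 58.0, 60.1 and 62.9 CPM in ODN+IM156, against 83.4, 88.6 and 66.2 CPM in ODN (-0.40, SE 0.117, edgeR adjusted p = 0.0968). In all 3 genes the groups did not overlap, and none passed the edgeR test over all genes.

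The companion lists had no calls in this comparison. None of the 83 cytosolic ribosomal protein genes was called, with a median of -0.35 and all 83 negative, and none of 38 complex I genes, with a median of -0.23 and 35 negative. The 20 mitosis genes had a median of -1.11, all negative and none called. Mitosis genes summed to 633, 1000.3 and 898 CPM in ODN+IM156, against 3080, 1373 and 859 CPM in ODN. The medians of the mitochondrial translation factors (-0.02), synthetases (0.04) and assembly factors (0.04) were close to 0.

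ODN+IM156 against control compares mice given both agents with untreated ones. No gene of the 77 was called with edgeR (background 1.59%), 7 had an unadjusted p below 0.05 (9.09%, background 12.9%), and DESeq2 called 1, Mrpl45 (background 2.49%). The median was 0.05, against 0.00 over all genes, and 50 were positive. The genes of smallest p were Mrpl45, Mrpl30 and Mrpl52, all called in ODN against control, a comparison that shares the control libraries. Mrpl45 had 64.6, 69.9 and 66.6 CPM in ODN+IM156, against 55, 53.4 and 47.8 CPM in control (0.36, SE 0.1, edgeR adjusted p = 0.0799). Its ODN+IM156 mean of 67.0 ± 2.65 CPM was close to the ODN mean of 69.8 ± 7.77 CPM (SD, n = 3 each). Mrpl30 had 82.7, 92.8 and 89.2 CPM in ODN+IM156, against 70.4, 68.8 and 71.1 CPM in control (0.33, SE 0.104, edgeR adjusted p = 0.137). Mrpl52 had 99.6, 92.9 and 103 CPM in ODN+IM156, against 83.1, 73.7 and 76.9 CPM in control (0.34, SE 0.109, edgeR adjusted p = 0.147). The groups did not overlap in any of the 3. Oxa1l, called with ODN, was called here too, at 93.1 ± 0.434 CPM in ODN+IM156 and 72.7 ± 3.02 CPM in control (0.36, edgeR adjusted p = 0.0426).

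The other called genes lay between ODN and control or near control. Mrps16 had 91.2 ± 2.54 CPM in ODN+IM156, 108 ± 15.3 CPM in ODN and 80.5 ± 8.78 CPM in control. Mrpl51 had 48.3 ± 7.41, 61.8 ± 11.2 and 43.3 ± 1.29 CPM, and Mrpl42 44.8 ± 4.55, 54.7 ± 9.35 and 39.7 ± 7.01 CPM in the same order of groups. Mrps5 had 63.0 ± 4.35 CPM in ODN+IM156, 57.3 ± 6.62 CPM in ODN and 73.7 ± 3.56 CPM in control (SD, n = 3 each). In 8 of the 9 called genes the ODN+IM156 fold change over ODN was negative, the exception being Mrps5, the gene that fell with ODN. The 9 genes were called on these same ODN libraries, so these signs are in part given by that choice and are no separate evidence.

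**Figure D4:**
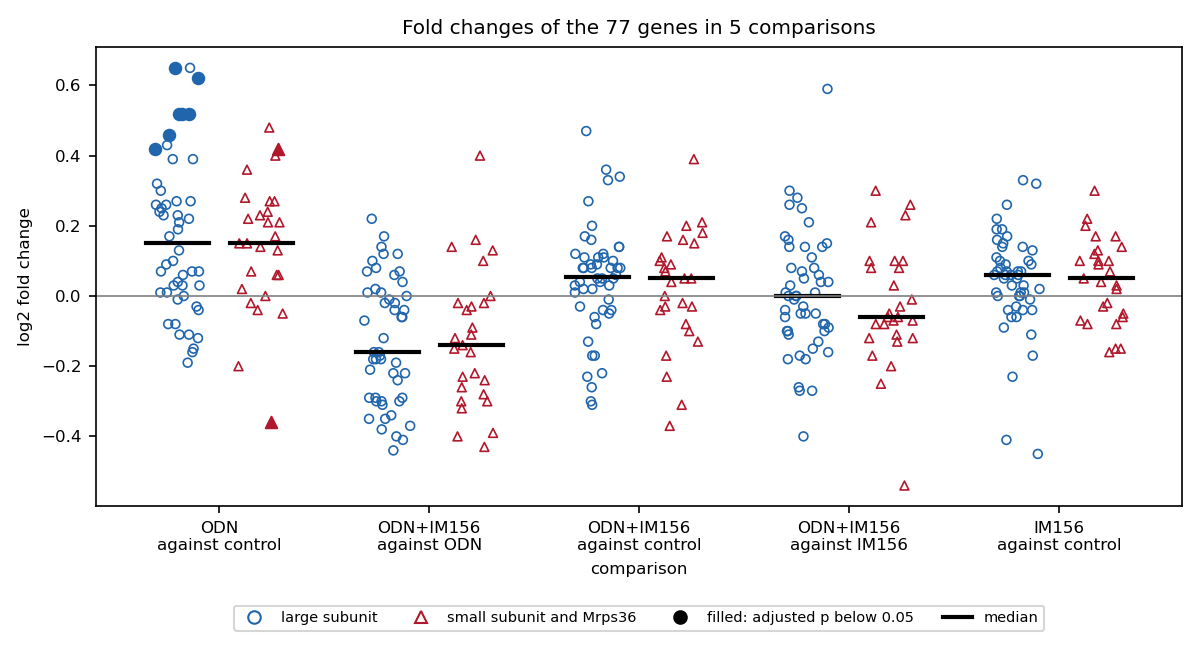
Log2 fold changes (y axis) of the 77 genes in 5 comparisons (x axis), large subunit as blue circles and small subunit with Mrps36 as red triangles, filled where the edgeR adjusted p is below 0.05, with black bars at the medians. Filled symbols, 9 in all, appear in ODN against control only, and the medians of that comparison and of ODN+IM156 against ODN lie on opposite sides of 0; both use the ODN libraries.

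IM156 against control asks what IM156 did without ODN. No gene of the 77 was called with edgeR or DESeq2 (backgrounds 0% and 0.0115%), and 3 had an unadjusted p below 0.05 (3.9%, background 3.7%). The median was 0.06, with 51 genes positive, and fold changes ran from -0.45 to 0.33. The 77 genes summed to 3419 ± 128 CPM in IM156 and 3317 ± 114 CPM in control (SD, n = 3 each), and the libraries overlapped. The smallest p belonged to Mrpl27, whose bacterial counterpart reaches the peptidyl transferase centre. It had 22.3, 18 and 13.9 CPM in IM156, against 27.9, 21.3 and 24.8 CPM in control, with an overlap of 1 library (-0.45, SE 0.173). Mrpl46 had 38.3, 35.3 and 33 CPM in IM156, against 30.3, 32.1 and 23.0 CPM in control (0.32, SE 0.127). Mrps35 had 37.7, 35.2 and 35.3 CPM in IM156, against 28.7, 31.1 and 28.2 CPM in control (0.30, SE 0.12). For Mrpl46 and Mrps35, both mitochondria-specific, the groups did not overlap, and for all 3 the edgeR adjusted p was 0.999.

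ODN+IM156 against IM156 asks what ODN did in mice that also received IM156. No gene of the 77 was called with edgeR or DESeq2 (backgrounds 2.47% and 3.23%), and 8 had an unadjusted p below 0.05 (10.4%, background 14.4%). The median was -0.03, with 35 positive and 42 negative. Mrpl27 again had the smallest p, with 29.2, 23.1 and 29.1 CPM in ODN+IM156, against 22.3, 18 and 13.9 CPM in IM156 (0.59, SE 0.172, edgeR adjusted p = 0.0783). Mrpl46 had 29.0, 26.1 and 25.9 CPM in ODN+IM156, against 38.3, 35.3 and 33 CPM in IM156 (-0.40, SE 0.128, edgeR adjusted p = 0.117). Mrpl45 had 64.6, 69.9 and 66.6 CPM in ODN+IM156, against 55, 54.1 and 54.7 CPM in IM156 (0.30, SE 0.0999, edgeR adjusted p = 0.139). This comparison shares the IM156 libraries with the one before, and among the 4 group means that of IM156 was the lowest for Mrpl27 and the highest for Mrpl46.

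The interaction sets ODN+IM156 over ODN against IM156 over control, and tests directly whether the response to IM156 differed. It called none of the 77 genes and none of all genes tested with edgeR (background 0%), and DESeq2 called 0 of the 26 members that it gave an adjusted p (background 4.88%). At an unadjusted p below 0.05 there were 18 genes (23.4%, background 12.3%), all negative. The interaction uses the same ODN and control libraries as ODN against control, so its negative signs are in part given by them. The median was -0.14, with 57 of 77 negative. The smallest p belonged to Mrpl46 (-0.66, SE 0.18, edgeR adjusted p = 0.154), Mrpl18 (-0.50, SE 0.155, edgeR adjusted p = 0.2) and Mrpl30 (-0.48, SE 0.146, edgeR adjusted p = 0.2). Without ODN replicate 3, edgeR called 3 (3.90%, background 2.15%): Mrpl18, Mrpl30 and Mrpl51. The median SE of the interaction, 0.18, was larger than that of a simple comparison, 0.127, so differences of the size of the median were not detectable gene by gene.

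Across the 4 groups, the highest mean was in ODN+IM156 for 12 genes, in ODN for 43, in IM156 for 14 and in control for 8. The SD between replicates exceeded 20% of the mean in 4, 7, 4 and 8 of the 77 genes in the same groups. Its median was 7.26, 10.2, 9.06 and 8.14% of the mean in that order.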

How the data were processed

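Raw counts of reads, deposited by the authors, cover 12 QuantSeq 3' libraries of splenic B cells in 23282 rows named by symbol. Per the submitters' processing notes the authors used Bowtie2, bedtools and edgeR with GRCm38 (mm10); versions, annotation and strand rule are not given in the sources used here. The 12 normalized columns and 4 group averages were not used, and 5883 rows had no count. The fit used edgeR 4.0.16 (R 4.3.3): filterByExpr with default settings (11857 genes), TMM scaling, and a quasi-likelihood fit with 1 mean per group over all 12 libraries (8 residual degrees of freedom). Tests were two-sided, with Benjamini-Hochberg adjustment over all genes tested and a threshold of 0.05. Levels are CPM, counts scaled to a common library size, and fold changes are log2 values. Over the 77 genes, replicates of a group differed by a chi-square per degree of freedom of 2.48 to 6.31, where counting error alone gives 1. Over well-counted genes of the whole table, without Rn45s, it was 16.2 to 22.2 between ODN libraries and 4.29 to 11.2 in the other groups. The fit shares 1 spread per gene over all groups, so tests of ODN use a spread drawn in part from less variable groups. For single members the SD lay below the counting error of a library of mean count in 15, 11, 14 and 24 of 77 genes in ODN+IM156, ODN, IM156 and control. Reads carry no molecular identifiers.

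Positions come from GENCODE M21 on GRCm38 (all 77 symbols found) and promoters from RefSeq. The text names called members in order of p, or the 3 of smallest p where fewer than 3 were called, members of set structural roles, and up to 3 called genes of a companion list. The members, lists and tests were chosen with earlier results of these data known. The alternatives were RLE factors, library totals, no filter (at least 1 count in all), replicate number as a block, Rn45s left out, a loess offset for transcript length (span 0.3), a fit of the compared groups only, DESeq2 1.42.0 and each library left out. The main fit was tested on simulated counts for ODN against control. It called 29% of genes given a log2 change of 0.5 in size and 74.5% of those given 1, with 6 unchanged genes called. A gene that was not called may therefore still have changed.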

Additional observations from a re-analysis of the deposited data

How the results depend on the processing

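The main counts of called mitochondrial ribosomal protein genes were 9 in ODN against control and 0 in each other comparison. In ODN against control the count was 4 when only the compared groups were fitted, 8 with library totals, 12 without the filter, 7 with the length correction (6 of the 9, plus Mrpl53 lower) and 9 with RLE factors, DESeq2 or Rn45s left out. Leaving out 1 library gave 4 to 15. In ODN+IM156 against ODN it was 4 without the filter, 3 with DESeq2 and 0 to 7 on leaving out 1 library, in ODN+IM156 against control 1 without the filter, 3 with the compared groups only, 1 with DESeq2 and 0 to 1, and in ODN+IM156 against IM156 1 without the filter, 5 with the compared groups only and 0 to 1. IM156 against control gave 0 under every alternative. The interaction gave 2 without the filter and 0 to 3 on leaving out 1 library. Over all genes 9.34% were called in ODN against control without the filter, where the members had 15.6%. With library totals the shares in that comparison, all genes before members, were 11.9% and 10.4%, and with the length correction 9.37% and 9.09%. Without the filter they were 3.82% and 5.19% in ODN+IM156 against ODN, and 3.05% and 1.30% in ODN+IM156 against control. They were 3.75% and 1.30% in ODN+IM156 against IM156, and 1.59% and 2.60% in the interaction. With the compared groups only they were 3.44% and 3.90% in ODN+IM156 against control, and 7.76% and 6.49% in ODN+IM156 against IM156. The cause was not tested.

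Same replicate numbers did not pair the libraries: same-number libraries of different groups had correlations of their deviations from -0.1 to 0.0789, and 0 of 18 pairs passed 0.1. With the replicate number as a block, 9 genes were called in ODN against control, the same 9, and 1 in ODN+IM156 against IM156, Mrpl27. No library had its best match under its own number in all 3 other groups. For the named genes, 420 of 476 values kept their direction and side of the threshold, 31 lost a call, 25 gained one and 0 changed sign. Many of these values belong to genes without a call in the main fit. Only the 9 genes called in ODN against control had a call to lose, so all 31 losses fell there. Mrpl42 kept its call in 8 of 20 alternatives and Mrps5 in 12 of 20, while Mrpl18, Mrpl30 and Mrpl52 kept theirs in all 20. A member had at least 31 counts in each library. The median SD between libraries was 7.26 to 10.2% of the mean over the 4 groups and the median counting error 4.73 to 5.01%, so counting error is part of that spread.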
